A study of Mus musculus with 6 samples.

Results

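The E2F transcription factors and the retinoblastoma family, also called pocket proteins, form the switch that lets a cell enter DNA synthesis. Described here are 9 of their genes in the mouse hippocampus: E2f1, E2f2 and E2f3 (activating E2Fs), E2f4, E2f5 and E2f6 (repressing E2Fs), and Rb1, Rbl1 and Rbl2 (pocket proteins). They were taken by gene symbol, not by a cut on a measured value, but with earlier results of these data known. All 9 were found among the 37620 Ensembl gene identifiers of each count table. RNA was sequenced from hippocampi of 13-week-old C57BL/6 mice, 3 with the genotype miR17-92 knockout and 3 wildtype, with no litter used more than once. The labels name neither the part of the cluster that was deleted, nor a Cre driver, nor the cells in which the deletion took place, and they give no sex, treatment or batch. The question put to these genes is whether their RNA differs between knockout and wildtype hippocampus.

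An activating E2F binds DNA as a dimer with a DP protein and switches on genes for DNA replication and cell cycle entry. In resting cells the pocket protein RB, encoded by Rb1, binds the activating E2Fs and silences them, while p107 (Rbl1) and p130 (Rbl2) bind E2F4 and E2F5 and hold the same target genes down. Cyclin D and cyclin E kinases phosphorylate the pocket proteins and release the E2Fs, and E2F6, which lacks the pocket-binding segment, represses through Polycomb complexes. Most hippocampal cells are neurons and glia that do not divide, with dividing progenitors confined largely to the dentate gyrus. The microRNAs of the miR-17-92 cluster are known to repress E2F1, E2F2 and E2F3 in cell lines, those E2Fs are known to activate the cluster in turn, and Rbl2 is another reported target in mouse cells.

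A microRNA pairs with messenger RNA mainly through its seed, bases 2 to 8. The mature sequences of the cluster are shown because they define the matches searched in the 9 genes. They come from RefSeq on GRCm38.p6, plus strand, 5′ to 3′, with the seed in capitals.
mmu-miR-17-5p, chr14:115043684-115043706: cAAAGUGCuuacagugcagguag
mmu-miR-20a-5p, chr14:115044183-115044205: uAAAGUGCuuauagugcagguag
mmu-miR-18a-5p, chr14:115043867-115043889: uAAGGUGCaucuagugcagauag
mmu-miR-19a-3p, chr14:115044048-115044070: uGUGCAAAucuaugcaaaacuga
mmu-miR-19b-3p, chr14:115044358-115044380: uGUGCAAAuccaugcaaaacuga
mmu-miR-92a-3p, chr14:115044476-115044496: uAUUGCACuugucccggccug
miR-17-5p and miR-20a-5p share 1 seed, as do miR-19a-3p and miR-19b-3p. The seed of miR-17-5p is not particular to the cluster. It also stands in miR-106a-5p and miR-20b-5p from chromosome X and in miR-106b-5p and miR-93-5p from chromosome 5, which a deletion of the cluster would leave in place.

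Of the 9 genes, 7 held at least 1 match to the miR-17 seed in their longest annotated 3′ UTR, with 9 matches in all, and E2f4 and E2f6 held 0. The matches are shown with the letters that pair with seed bases 2 to 8 in capitals, from GENCODE M21 transcripts on GRCm38, in the direction of the messenger RNA. The base given in each name is the position in the 3′ UTR, counted from the stop codon.
E2f1, base 470, chr2:154560204-154560230, minus strand: tgggctctaactGCACTTTtggtgtcc
E2f1, base 985, chr2:154559689-154559715, minus strand: accctccagtctGCACTTTgatttgtt
E2f2, base 1342, chr4:136194367-136194393, plus strand: ctcagtggggcaGCACTTTttgcttgt
E2f3, base 1819, chr13:29908070-29908096, minus strand: cagaagacaccgGCACTTTaaactctg
E2f5, base 442, chr3:14606147-14606173, plus strand: ccttctgttttaGCACTTTaagcctat
Rb1, base 844, chr14:73196353-73196379, minus strand: tacaacccaagtGCACTTTttaatgtt
Rbl1, base 23, chr2:157147469-157147495, minus strand: tgcctgatcaaaGCACTTTtggattgt
Rbl2, base 705, chr8:91123139-91123165, plus strand: gtgtaattggtgGCACTTTatggctgt
Rbl2, base 766, chr8:91123200-91123226, plus strand: atatttatgatgGCACTTTctatggtg
In E2f3, in E2f5 and at base 705 of Rbl2 the match was followed by an A, which makes it 8 bases long and is the context known to favour repression. For comparison, 14506 tested genes had an annotated 3′ UTR. Of these, 14.4% carried a miR-17 match and 2.15% carried 2 or more, as E2f1 and Rbl2 did. The 9 genes were chosen to include reported targets of the cluster, and their longest 3′ UTRs run from 592 to 3328 bases. The comparison is matched for neither, so it is no test of enrichment. A match describes the letters of a transcript, and binding of the microRNA was not measured.

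**Figure D1:**
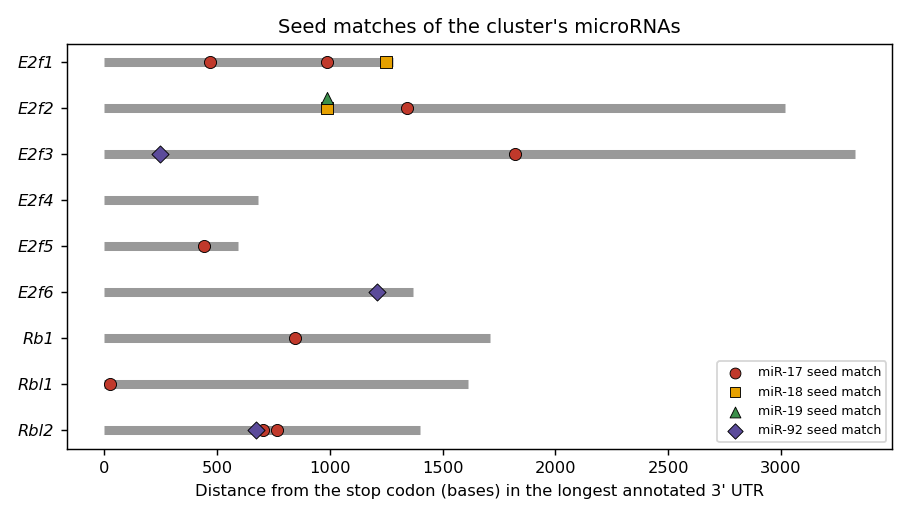
Seed matches along the longest annotated 3′ UTR of each gene, as distance from the stop codon in bases. Grey bars give the length of the 3′ UTR and symbols the microRNA family whose seed is matched. The miR-17 matches stand in 7 of the 9 genes, and E2f4 and E2f6 have none.

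The other seeds of the cluster were matched less often in these genes. miR-18 matches stood in E2f1 and E2f2, 1 in each, and a miR-19 match in E2f2, where it overlaps the miR-18 match. A miR-92 match stood in E2f3, E2f6 and Rbl2. E2f4 (chr8:105297663-105305370, plus strand, GRCm38) had no 7-base match to any of the 4 seeds, in the second-shortest of the 9 3′ UTRs at 682 bases. Over all tested genes with a 3′ UTR the shares with a match were 9.29% for miR-18, 13.1% for miR-19 and 7.60% for miR-92.

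Levels are given as CPM, the reads of a gene scaled by TMM factors and to the library's total over the 16432 genes that passed the filter on low counts. Levels of different genes are compared as CPM per kilobase of merged exons. The highest level per length was that of E2f4, at 12.4 ± 0.23 CPM per kb in knockout and 13.0 ± 0.48 CPM per kb in wildtype (SD, n = 3 each). Rb1 followed at 11.1 ± 0.72 CPM per kb in knockout and 10.7 ± 1.1 CPM per kb in wildtype. Then came E2f3 (8.81 ± 0.73 in knockout and 8.91 ± 0.23 in wildtype, CPM per kb) and Rbl2 (7.77 ± 0.30 in knockout and 7.51 ± 0.41 in wildtype). The pair overlapped over the 6 libraries, and E2f3 was above Rbl2 in 5 of them. E2f5 and E2f6 also overlapped, with levels of 4.77 to 5.82 and 4.60 to 5.46 CPM per kb over the 6 libraries, and E2f5 was the higher in 5. E2f1 stood clearly lower, at 1.75 ± 0.24 CPM per kb in knockout and 1.81 ± 0.062 CPM per kb in wildtype. Lowest were Rbl1, at 0.358 to 0.465, and E2f2, at 0.166 to 0.271 CPM per kb over the 6 libraries. No other neighbours in this order overlapped. The length used takes in the exons of all annotated transcripts. E2f6 has 5663 merged bases but 2418 in its longest coding transcript, Rbl2 7558 and 4925, and E2f5 1782 and 1779. Levels per transcript length were not computed, so the order and the shares below hold for merged exons only. With the longest coding transcript as length the order would differ. E2f6, at 29.1 CPM in knockout and 27.3 CPM in wildtype, would stand above E2f5, at 9.98 CPM in knockout and 9.58 CPM in wildtype. The share of E2f6 would rise. Rbl2 would stand above E2f3, which has 5097 bases in that transcript.

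Per length, E2f4 thus gave 36.6% ± 1.6 of the summed level of the 6 E2F genes in knockout and 37.9% ± 0.79 in wildtype (SD, n = 3 each). E2f3 gave 26.0% ± 1.4 in knockout and 26.1% ± 0.90 in wildtype. The next were E2f5, with 16.6% ± 0.50 in knockout and 15.7% ± 1.4 in wildtype, and E2f6, with 15.2% ± 0.79 in knockout and 14.1% ± 0.91 in wildtype. E2f1 gave 5.16% ± 0.63 in knockout and 5.30% ± 0.26 in wildtype, and E2f2 0.531% ± 0.054 in knockout and 0.742% ± 0.057 in wildtype. Among the pocket proteins Rb1 held 57.5% ± 2.4 in knockout and 57.4% ± 2.0 in wildtype. Rbl2 held 40.3% ± 2.1 in knockout and 40.3% ± 1.7 in wildtype, which left 2.15% ± 0.29 in knockout and 2.29% ± 0.31 in wildtype to Rbl1. These are shares of RNA in a whole tissue, where fewer cells of a type and less RNA per cell cannot be told apart.

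**Figure D2:**
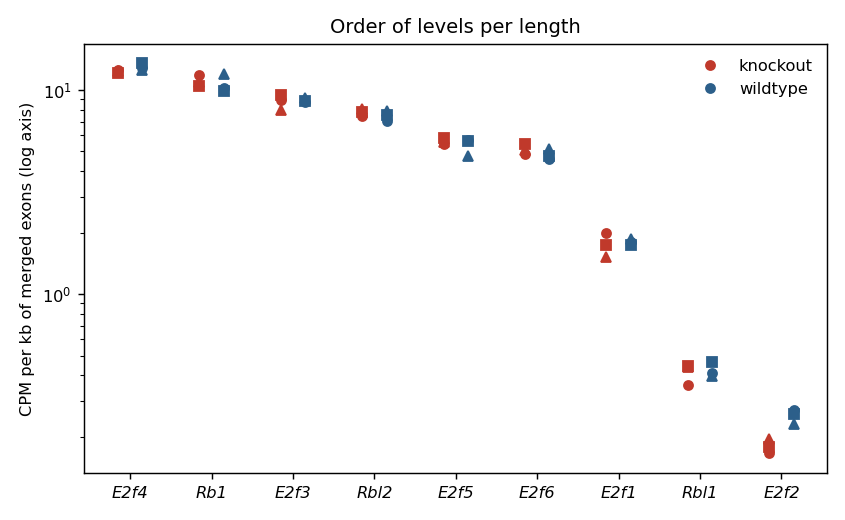
CPM per kilobase of merged exons for each gene in each of the 6 libraries on a log axis, knockout left of wildtype, with 1 symbol shape per replicate number. E2f4, Rb1, E2f3 and Rbl2 lie highest, and Rbl1 and E2f2 lie below 0.5 CPM per kb in every library.

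Over the series as a whole, reads assigned to genes ran from 26439693 to 57246827 per knockout library and from 31731263 to 43588323 per wildtype library. edgeR called 0 of 16432 tested genes at an adjusted p under 0.05, with 1746 at an unadjusted p under 0.05, and DESeq2 called 165. The host transcript Mir17hg had 0.933, 1.33 and 0.649 CPM in knockout and 1.07, 1.07 and 1.13 CPM in wildtype libraries, so its groups overlapped (log2 fold -0.22, SE 0.28, edgeR adjusted p = 0.813). The 6 hairpins of the cluster held 0 reads in every library, which allows up to 3 reads each, so these counts do not check the genotype. The labelled tissue was checked with its markers. Neuron genes summed to 7730 to 7898 CPM in knockout and 7126 to 7558 CPM in wildtype, and dentate granule cell genes to 689 to 741 CPM in knockout and 623 to 658 CPM in wildtype. Neither sum overlapped between genotypes, but the genes of each list differed in sign. Without Calb1 the dentate sums overlapped, at 508 to 574 CPM in knockout and 505 to 533 CPM in wildtype, and 2 of its 8 genes had a negative fold. In the neuron list 3 of 8 did. Without Map2 the neuron sums still did not overlap, at 5626 to 5755 CPM in knockout and 5299 to 5600 CPM in wildtype. Meninges genes, all 8 with a positive fold, summed to 314 to 427 CPM in knockout and 242 to 283 CPM in wildtype, most of it Ptgds, and to 101 to 123 CPM in knockout and 85.4 to 98.5 CPM in wildtype without Ptgds. Astrocyte genes, all 8 with a positive fold, summed to 5958 to 6459 CPM in knockout and 5493 to 6168 CPM in wildtype, which overlapped. The oligodendrocyte and endothelium lists each had 6 of 8 negative folds, with overlapping sums. In edgeR 0 genes of these lists passed. With DESeq2 2 meninges genes passed, and 1 each of the astrocyte, endothelium and dentate lists. In the neuron and oligodendrocyte lists 0 did. Over all genes that received a DESeq2 adjusted p, 1.34% passed. The dentate gene was Calb1 (edgeR adjusted p = 0.0624, DESeq2 adjusted p = 2.67e-09). The part of these shifts in the results below was not tested.

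None of the 9 genes differed between knockout and wildtype at an adjusted p under 0.05 in edgeR's quasi-likelihood test, against a background of 0% of all tested genes. All 9 passed the filter on low counts. Their adjusted p values lay between 0.434 (E2f2) and 0.950 (Rbl1), and their log2 folds (knockout over wildtype) between -0.49 and 0.09. Of the folds 4 were positive and 5 negative, with a median of -0.02, where all tested genes had 8218 positive and 8214 negative and a median of 0. By DESeq2 0 of the 7 members that received an adjusted p were called, against 1.34% of all genes that received one, and E2f2 and Rbl1 received none because of their low counts. At an unadjusted p under 0.05 stood 1 of the 9, E2f2, where 10.6% of all tested genes did.

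**Figure D3:**
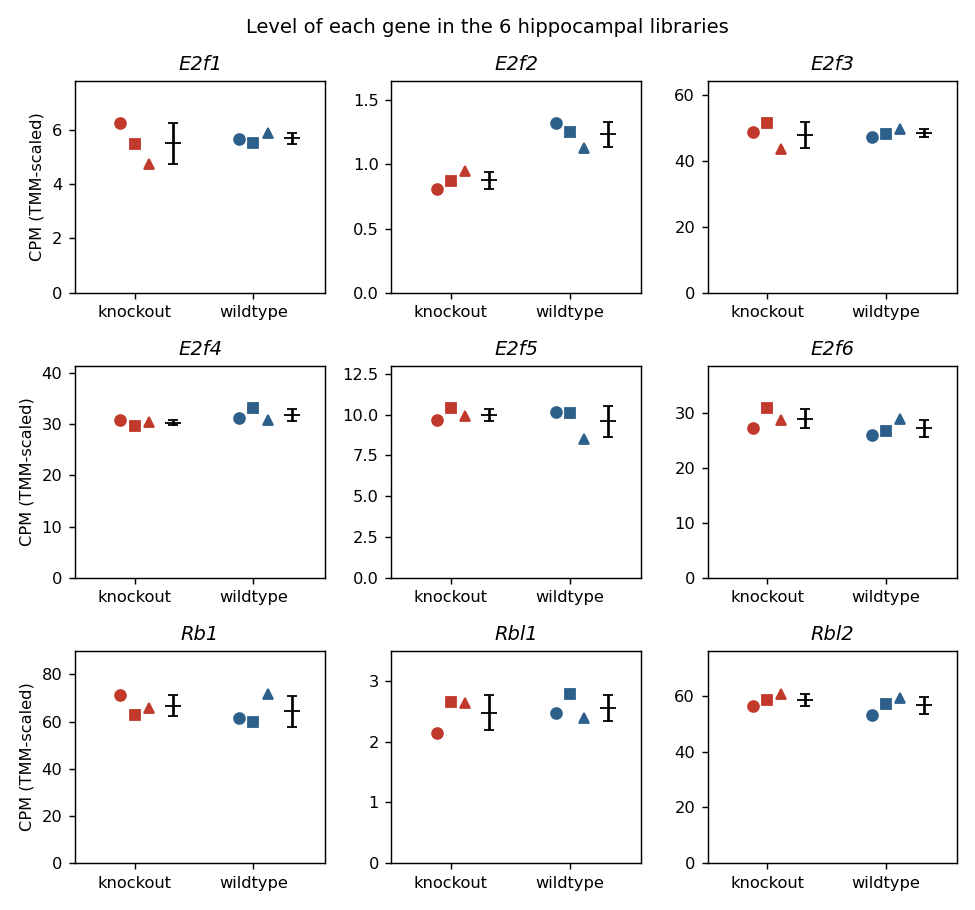
CPM of each gene in each library, with knockout left and wildtype right; symbol shapes mark replicate numbers, and black bars give the mean and SD of 3 libraries. E2f2 lies at 0.809 to 0.947 CPM in knockout and 1.13 to 1.32 CPM in wildtype, E2f4 is separated by a narrow gap, and the other 7 genes overlap.

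Among the activating E2Fs, E2f1, the founding member and the one most often linked to the cluster, had 6.25, 5.51 and 4.77 CPM in knockout replicates 1, 2 and 3, and 5.68, 5.51 and 5.90 CPM in wildtype replicates 1, 2 and 3. The wildtype values lay inside the knockout range, with knockout replicate 1 the highest and knockout replicate 3 the lowest of all. The mean was 5.51 ± 0.74 CPM in knockout and 5.70 ± 0.20 CPM in wildtype (SD, n = 3 each). The log2 fold was -0.05 (SE 0.12), with an edgeR adjusted p of 0.909, and its 95% interval spans folds from 0.792 to 1.17. The sign turned to a log2 fold of 0.05 without knockout replicate 3. With 145 to 272 reads per library, the counting error alone was about 6.86% of the level.

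E2f2, an activator that mouse studies tie to T cells and to maturing red blood cells, was the lowest of the 9 genes. It had 0.809, 0.873 and 0.947 CPM in knockout replicates 1, 2 and 3, and 1.32, 1.26 and 1.13 CPM in wildtype replicates 1, 2 and 3. Every knockout library lay below every wildtype library. It averaged 0.876 ± 0.069 CPM in knockout and 1.24 ± 0.097 CPM in wildtype (SD, n = 3 each). The log2 fold was -0.49 (SE 0.20), a fold of 0.712 with a 95% interval of 0.524 to 0.969, at an unadjusted p of 0.0344 and an edgeR adjusted p of 0.434, so it did not pass.

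The values of E2f2 rest on 26, 23 and 54 reads in knockout and 53, 55 and 36 reads in wildtype libraries. Counting error at the mean of these reads is 15.6% of the level, which is more than the spread of 7.86% in knockout and 7.88% in wildtype. Its log2 fold stayed between -0.56 and -0.42 in all 15 alternatives run, and the unadjusted p ran from 0.0319 to 0.154, under 0.05 in 7 of them. Of all tested genes 5.58% were lower in knockout at an unadjusted p under 0.05.

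None of the blood genes passed in edgeR. Of 5 blood genes, 4 had a negative fold, none was at 0 in all libraries, and their summed level was 13.1 to 17.3 CPM in knockout and 14.97 to 27.2 CPM in wildtype. Hba-a1, an alpha globin, had 2.33, 1.86 and 1.86 CPM in knockout and 3.54, 2.42 and 3.58 CPM in wildtype libraries, a log2 fold of -0.65 (SE 0.20, edgeR adjusted p = 0.334). The other alpha globin, Hba-a2, had a fold of the opposite sign, with 0.653, 1.03 and 0.351 CPM in knockout and 0, 0.503 and 0.847 CPM in wildtype libraries (log2 fold 0.55, SE 0.81). For the beta globin genes the log2 fold was -0.74 in Hbb-bt (SE 0.27; -0.41 without wildtype replicate 3) and -0.26 in Hbb-bs (SE 0.23; 0.05 without wildtype replicate 3). Reads of the globin genes are uncertain, since close copies can split them. Alas2, which makes heme in red cell precursors, had 1.17 ± 0.17 CPM in knockout and 1.34 ± 0.36 CPM in wildtype (SD, n = 3 each). In replicates 1, 2 and 3 the summed blood level was 17.2, 17.3 and 13.1 CPM in knockout and 17.8, 14.97 and 27.2 CPM in wildtype. The part of blood cells in the E2f2 values was not tested.

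E2f3, the third activator and the one with the highest level, had 48.6, 51.3 and 43.5 CPM in knockout and 47.3, 48.1 and 49.7 CPM in wildtype libraries. As for E2f1, the wildtype values fell within the knockout range and knockout replicate 3 was the lowest. The log2 fold was -0.02 (SE 0.06, edgeR adjusted p = 0.940), with a 95% interval of 0.891 to 1.09 as a fold. It was 0.05 without knockout replicate 3.

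Among the repressing E2Fs, E2f4, the E2F best known from resting cells, had 30.8, 29.7 and 30.5 CPM in knockout and 31.3, 33.1 and 30.9 CPM in wildtype libraries. The groups did not overlap, but the highest knockout and the lowest wildtype library were 30.83 and 30.85 CPM. The log2 fold of -0.07 (SE 0.05) had an edgeR adjusted p of 0.686 and a 95% interval of 0.879 to 1.04 as a fold. E2f2 and E2f4 were thus the 2 of 9 genes whose groups did not overlap, both lower in knockout. Over all tested genes the groups did not overlap for 16.6%, with 8.34% lower and 8.29% higher in knockout.

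E2f5, which also works with p107 and p130, had 9.67, 10.4 and 9.90 CPM in knockout and 10.1, 10.1 and 8.50 CPM in wildtype libraries, where wildtype replicate 3 was the lowest and the others lay close together. Its log2 fold was 0.06 (SE 0.10, edgeR adjusted p = 0.867), with a 95% interval of -0.16 to 0.28, and it was -0.02 without wildtype replicate 3. E2f6, the member that works without pocket proteins, had 27.4, 30.9 and 28.9 CPM in knockout and 26.1, 26.9 and 29.0 CPM in wildtype libraries. The groups overlapped, and the log2 fold of 0.09 (SE 0.07, edgeR adjusted p = 0.670) was the highest of the 9, with a 95% interval of -0.06 to 0.24.

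Among the pocket proteins, Rb1 had 71.4, 62.9 and 65.8 CPM in knockout and 61.6, 59.7 and 71.8 CPM in wildtype libraries, the highest CPM of the 9 genes. Wildtype replicate 3 was the highest library and the groups overlapped. The log2 fold was 0.05 (SE 0.08, edgeR adjusted p = 0.837), with a 95% interval of 0.919 to 1.17 as a fold, and it was 0.14 without wildtype replicate 3 and 0.001 without either knockout replicate 1 or wildtype replicate 2. Rbl2, which encodes the p130 of resting cells, had 56.4, 58.8 and 61.0 CPM in knockout and 53.4, 57.3 and 59.5 CPM in wildtype libraries. These overlapped too, with a log2 fold of 0.05 (SE 0.06, edgeR adjusted p = 0.770). Its 95% interval was 0.951 to 1.13 as a fold, the narrowest of the pocket proteins. Exons of Rb1 and Rbl2 overlap genes on the opposite strand. If strand was not used, reads in the shared bases may be missing from their counts, set aside as ambiguous between genes.

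Rbl1, whose p107 is known from dividing cells and is itself an E2F target, had 2.15, 2.66 and 2.63 CPM in knockout and 2.47, 2.79 and 2.39 CPM in wildtype libraries. The groups overlapped, and the log2 fold of -0.04 (SE 0.15, edgeR adjusted p = 0.950) had a 95% interval of 0.764 to 1.24 as a fold. At 69 to 150 reads per library its counting error was 10.1% of the level, and its sign turned without knockout replicate 1 (0.05) or without wildtype replicate 2 (0.03).

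**Figure D4:**
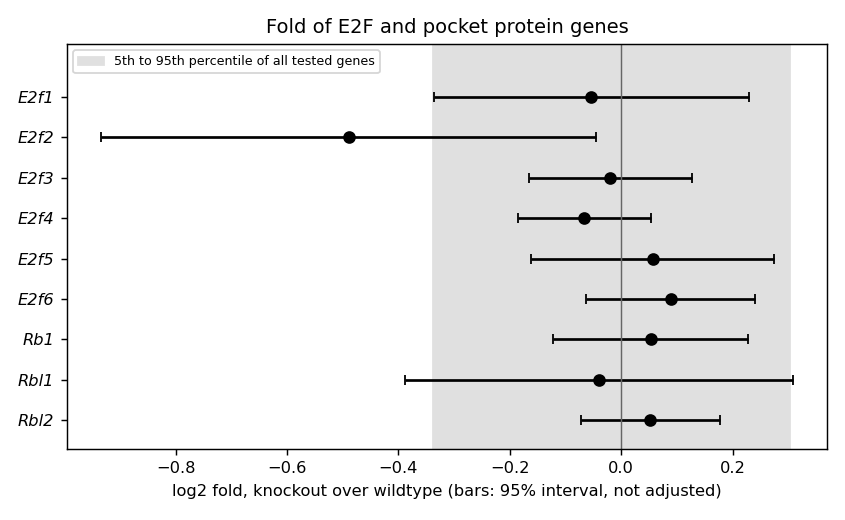
Log2 fold, knockout over wildtype, of each gene with its 95% interval from the edgeR fit, not adjusted for the number of genes. The grey band spans the 5th to 95th percentile of the folds of all tested genes, from -0.34 to 0.30. E2f2 lies outside the band and the other 8 lie within 0.09 of 0.

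Set beside the seed matches, the 7 genes with a miR-17 match had log2 folds of -0.49 to 0.06, 3 positive and 4 negative, with a median of -0.02. E2f6 and E2f4, without a match, had log2 folds of 0.09 and -0.07. E2f1 and Rbl2, with 2 matches each, had log2 folds of -0.05 and 0.05, and E2f3, E2f5 and Rbl2, with an 8-base match, of -0.02, 0.06 and 0.05. The gene with the largest difference, E2f2, carries matches to 3 of the seeds, and its values were lower in knockout. Over all tested genes with a 3′ UTR the median log2 fold was 0.01 for those with a miR-17 match and -0.001 for those without. Protein levels were not measured.

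The partners and complexes of these factors were given from lists of pathway genes. DP partners and the atypical E2Fs had 0 of 4 tested genes past the threshold in edgeR, 0 at an unadjusted p under 0.05, and a median log2 fold of -0.18. Tfdp1, which encodes a DP protein, had 28.8 ± 1.0 CPM in knockout and 29.4 ± 1.4 CPM in wildtype (SD, n = 3 each). E2f7 and E2f8, which repress without DP proteins, lay below 1 CPM. E2f8 had 0.319 ± 0.078 CPM in knockout and 0.470 ± 0.21 CPM in wildtype (log2 fold -0.49, SE 0.40; -0.21 without wildtype replicate 3), and E2f7 had 0.247 ± 0.078 CPM in knockout and 0.291 ± 0.16 CPM in wildtype.

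The MuvB core, which joins p130 and E2F4 in the DREAM complex of resting cells, had 0 of 5 genes past the threshold and 0 at an unadjusted p under 0.05, with a median log2 fold of 0.06. Lin54, Rbbp4 and Lin37 had the smallest p, with log2 folds of 0.06, 0.04 and 0.06. Partners of E2F6 in its Polycomb complex had 0 of 11 past the threshold in edgeR and 1 with DESeq2, with a median log2 fold of 0.07. At an unadjusted p under 0.05 were 1 higher and 1 lower in knockout. Ring1, a ubiquitin ligase of that complex, had 24.3, 23.7 and 22.6 CPM in knockout and 34.5, 25.7 and 37.4 CPM in wildtype libraries. All knockout libraries lay below all wildtype libraries, with wildtype replicate 2 close to the knockout values. Its log2 fold was -0.47 (SE 0.12, edgeR adjusted p = 0.311, DESeq2 adjusted p = 0.0178), and without wildtype replicate 2 it was -0.61 and passed in edgeR (adjusted p = 0.0406). Rnf2, the close relative of Ring1, had a log2 fold of 0.12 (SE 0.05) and the histone deacetylase Hdac2 of 0.07 (SE 0.04), neither past the threshold. With an offset for GC content and length they were 0.04 and 0.02, and the unadjusted p of Rnf2 was 0.353, against 0.0305 in the edgeR fit without it.

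The kinases that act on the pocket proteins had 0 of 8 genes past the threshold in edgeR and 1 with DESeq2, 1 lower at an unadjusted p under 0.05, and a median log2 fold of -0.05. That gene was Ccnd1, which encodes cyclin D1, at 32.1, 32.2 and 32.5 CPM in knockout and 48.2, 37.4 and 44.0 CPM in wildtype libraries. The groups did not overlap. The log2 fold of -0.42 (SE 0.09) had an adjusted p of 0.229 with edgeR and 0.00232 with DESeq2, and it passed in edgeR without the filter (adjusted p = 0.0327) or without wildtype replicate 2 (-0.52, adjusted p = 0.0406). Neither Ccne2, which encodes cyclin E2 (log2 fold 0.25, SE 0.14), nor Cdk6, a partner of cyclin D (log2 fold -0.29, SE 0.22), passed.

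Inhibitors of these kinases had 0 of 5 tested genes past the threshold and 1 at an unadjusted p under 0.05, of 7 listed, with a median log2 fold of 0.02. Cdkn2c, which encodes p18 and blocks the cyclin D kinases, had 1.28, 1.14 and 1.42 CPM in knockout and 1.77, 1.62 and 1.76 CPM in wildtype libraries, with no overlap. Its log2 fold was -0.41 (SE 0.18, edgeR adjusted p = 0.461). Neither Cdkn1a, for p21 (log2 fold 0.22, SE 0.18; 0.08 without wildtype replicate 1), nor Cdkn1c, for p57 (log2 fold -0.13, SE 0.24), passed.

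Genes that E2Fs are known to drive did not move one way. Of 30 E2F target genes, all tested, 0 were past the threshold in edgeR or DESeq2, 15 had a positive and 15 a negative fold, and the median log2 fold was -0.01, beside 0 over all tested genes. Their summed level was 192 to 201 CPM in knockout and 196 to 200 CPM in wildtype libraries. At an unadjusted p under 0.05 stood 1, Cdc6, which loads the replicative helicase, with 0.591, 0.608 and 0.631 CPM in knockout and 0.947, 0.937 and 0.879 CPM in wildtype. Those groups did not overlap, and the log2 fold of -0.59 (SE 0.21, edgeR adjusted p = 0.398) rests on 16 to 41 reads per library. Pold1, a DNA polymerase subunit, had a log2 fold of -0.22 (SE 0.13), and Rfc3, a clamp loader subunit, one of 0.25 (SE 0.14).

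Markers of dividing cells were low in both groups. The 10 genes summed to 14.9 to 16.4 CPM in knockout and 14.8 to 17.9 CPM in wildtype, so the ranges overlapped. Of 9 tested, 0 were past the threshold and 0 at an unadjusted p under 0.05, with 7 negative folds and a median of -0.11. Those with the smallest p act in mitosis: Ccnb2 (log2 fold -0.46, SE 0.23), Aurkb (-0.58, SE 0.45) and Cenpf (-0.11, SE 0.17).

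**Figure D5:**
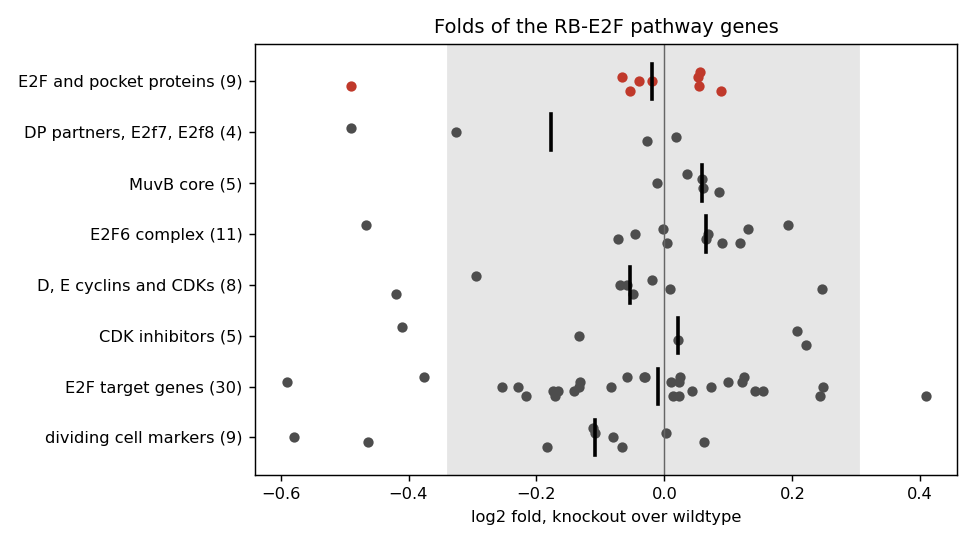
Log2 folds, knockout over wildtype, of the tested genes of each pathway list, with the number of genes in brackets and the median as a black bar. The grey band is the 5th to 95th percentile of all tested genes. The 30 E2F target genes lie on both sides of 0 with a median of -0.01, and E2f2 is the red point at -0.49.

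Several E2F and pocket protein genes are known to be E2F targets themselves, so the promoters of the 9 genes were searched for the E2F motif in the 4 forms TTTCCCGC, TTTCGCGC, TTTGCCGC and TTTGGCGC, on both strands, counting overlapping matches. RefSeq promoters of 300 bases on GRCm38.p6 were found for 6 of the 9 genes, and 3 of these held a match. Over all genes with such a promoter 2.60% did. A gene was counted if any of its promoters matched, and E2f2 and E2f3 each also had a promoter with 0 matches. The matches are shown 5′ to 3′ along the gene with the motif, or its reverse complement, in capitals.
E2f2, chr4:136172303-136172323, plus strand: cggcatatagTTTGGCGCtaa
E2f3, chr13:29986057-29986084, minus strand: tgaaaagccgGCGGGAAAtctgagtttc
Rbl1, chr2:157204535-157204562, minus strand: agaaggcgatTTTCGCGCgctttgtcgc
E2f1, E2f6 and Rbl2 did not hold these letters in the window. The 3 genes with a match had log2 folds of -0.49, -0.02 and -0.04 between knockout and wildtype.

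Over the 6 libraries, the genes most like E2f1 in log2 CPM were Fbxo44, Klhdc8b and Iglon5, with Pearson correlations of 0.983, 0.982 and 0.979. Those most like Rb1 were Snupn, Tmem38b and Pcsk5, with correlations of 0.996, 0.992 and 0.982. These were the highest of 11009 genes compared. All genes of a library share its depth and any bias of base composition, and 73 genes had a correlation above 0.9 with E2f1 and 50 with Rb1. With 6 libraries, correlations this high can also arise by chance among 11009 genes. The number expected by chance was not computed, so the named genes are not shown to be linked to E2f1 or Rb1.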

How the data were processed

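The authors deposited raw read counts per Ensembl gene, 1 table per hippocampus. The submitters' processing notes list mm9 as genome build and, as tools, HTSeq, SAMtools, STAR 2.3.0e, FastQC 0.10.1 and DESeq2. What each did, which annotation was counted and whether strand was used is not given in the sources used here. Without strand, reads in exons shared with genes on the opposite strand may have been set aside as ambiguous. The row for ambiguous reads held 1.20% to 1.27% of each file. This concerns E2f5 (26 exonic bases), Rb1 (488 and 408) and Rbl2 (693 with a counted gene). The lengths used for levels include these bases, so levels per length of these genes may be too low. The 5 rows that name no gene (38.0% to 40.3% of each file) were left out.

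Names, exon lengths and 3′ UTRs came from GENCODE M21 (GRCm38), which matched 32897 of 37620 identifiers. Of 50-base stretches in the longest coding transcript, 2.03% of E2f1, shared with 55 other genes, and 0% of the other members occurred in another gene.

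The test was edgeR 4.0.16 (R 4.3.3), quasi-likelihood, genotype alone, filterByExpr, TMM and Benjamini-Hochberg adjustment over 16432 genes at 0.05. Alternatives were DESeq2 1.42.0 and its size factors, upper quartile factors, limma-voom 3.58.1, a robust fit, no filter, 1 CPM in 3 libraries, an offset for GC content and transcript length, a replicate block, and leaving out each library. The scripts were tested on simulated counts. Same-numbered libraries share nothing in the labels. P-values measure the spread between these mice, and floors for 0 reads cover counting error only.

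The members and the 18 other gene lists were chosen with earlier results of these data known. Named were all members, Mir17hg, up to 3 genes with the smallest p in each pathway, dividing cell and blood list, and the 3 genes most like E2f1 and Rb1 (of at least 5 CPM). Genes of the other cell type lists are not named, and their sums are given where genotypes did not overlap. The astrocyte, oligodendrocyte and endothelium lists were added after their values were seen. Alas2, Hba-a2, Calb1, Map2 and Ptgds were named after their values were seen.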

Additional observations from a re-analysis of the deposited data

How the results depend on the processing

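The count of the 9 genes past the threshold was 0 in every setting run. Genes past the threshold over all genes were 0 in edgeR, 62 without a filter, 165 with DESeq2, 15 with the robust fit, 0 in the other settings with all libraries, and 0 to 17 when 1 library was left out (17 without knockout replicate 3, 16 without wildtype replicate 2, 2 without replicate 1 of either genotype). The cause was not tested. Of the alternatives with all libraries, only the offset for GC content and length turned the sign of a member, E2f1, to a log2 fold of 0.0113. It also turned Fbxo44 (0.035), Klhdc8b (0.0012), Iglon5 (0.071) and Tmem38b (-0.0154), and moved E2f4 to -0.0208, E2f5 to 0.017, Rb1 to 0.0069, Rbl1 to -0.0836, Rbl2 to 0.0334, Pold1 to -0.102 and Ccne2 to 0.12. Leaving out 1 library gave log2 folds of -0.157 to 0.0476 for E2f1, -0.56 to -0.437 for E2f2, -0.071 to 0.0456 for E2f3, -0.0885 to -0.035 for E2f4, -0.0221 to 0.0986 for E2f5, 0.0457 to 0.131 for E2f6, 0.0012 to 0.136 for Rb1, -0.0927 to 0.0494 for Rbl1 and 0.0101 to 0.0847 for Rbl2. It also gave log2 folds of -0.486 to 0.0412 for Mir17hg, -0.373 to 0.0844 for Cdkn1c, -0.0579 to 0.0078 for Tfdp1, -0.453 to 0.0451 for Hbb-bs, -0.0771 to 0.0246 for Fbxo44, -0.172 to 0.0146 for Klhdc8b, -0.0819 to 0.0353 for Iglon5 and -0.0014 to 0.0996 for Snupn, and, with no change of sign, -0.804 to -0.206 for E2f8, -0.691 to -0.0075 for E2f7, -0.887 to -0.383 for Aurkb, -0.204 to -0.0319 for Cenpf, -0.894 to -0.409 for Hbb-bt, 0.0784 to 0.402 for Cdkn1a, 0.146 to 0.338 for Rfc3, 0.146 to 0.361 for Ccne2 and -0.463 to -0.176 for Cdk6. The sign changes belong to genes that did not pass. The number of genes with a miR-17 match was 7 with 6 bases or with all annotated 3′ UTRs, and 3 when an 8-base match with A was required, which is a stricter search.

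With the replicate number as a block, 0 genes over all genes and 0 of the 9 passed, and E2f2 had a log2 fold of -0.49 (edgeR adjusted p = 0.540). Same-numbered libraries correlated at -0.10, -0.02 and -0.15 in their deviations, and no knockout library correlated best with its own number. Low counts limit genes such as E2f2, E2f7, E2f8, Cdc6, Aurkb and Mir17hg. Chosen after seeing the data, leaving Calb1 out of the dentate list turned the gap between the lowest knockout and the highest wildtype sum from 31.04 to -24.24 CPM. Leaving Map2 out of the neuron list moved that gap from 171.4 to 26.4 CPM, and leaving Ptgds out of the meninges list from 31.16 to 2.216 CPM.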
